A study of Homo sapiens with 9 samples.

Results

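The genes described here are those of polyamine synthesis and breakdown and of methionine use. They are 10 rows of a table of 58735 genes, chosen by gene name: ODC1, AMD1, SRM, SMS, OAZ1, AZIN1, SAT1, SMOX, MAT2A and MTAP. VCaP, an established prostate cancer cell line that depends on androgen, received either siCtrl, the control siRNA, or 1 of 2 siRNAs against CDO1 (siCDO1A or siCDO1C), and poly(A) RNA was sequenced from 3 libraries of each condition. CDO1 is the enzyme that oxidises cysteine, and the study asked which RNAs change when its expression falls. The cells of all 9 libraries were labelled wild type and were grown in medium with 10% fetal bovine serum and 2 nM DHT, the androgen dihydrotestosterone. The paper's text gives neither the siRNA sequences nor the identity of the control siRNA, and the time at which RNA was harvested for sequencing is not stated there. All libraries come from 1 cell line, labelled as biological replicates with a batch number equal to the replicate number, so the p-values below measure the spread between cultures of that line.

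Polyamines (putrescine, spermidine and spermine) are small positively charged molecules that bind nucleic acids, and the prostate is known for making and secreting them in large amounts. Ornithine decarboxylase turns ornithine into putrescine, and spermidine synthase and spermine synthase then each add an aminopropyl group. That group is taken from S-adenosylmethionine, which is made from methionine, so that polyamine synthesis draws on the methionine cycle. What remains of S-adenosylmethionine is returned to methionine by the salvage pathway, and cysteine, the substrate of CDO1, is made from the same cycle by transsulfuration.

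Total counts per library ranged from 12554626 to 16073698 with siCtrl, from 12282668 to 15239414 with siCDO1A and from 12061295 to 14537158 with siCDO1C. Levels are given as CPM (counts scaled to a common library total) after TMM scaling, which corrects library totals for composition, and 3 counts corresponded to 0.187 to 0.249 CPM. CDO1 was at 14.0 CPM with siCtrl and was reduced by 82.1% ± 4.83 (SD, n = 3) with siCDO1A and by 87.9% ± 6.98 (SD, n = 3) with siCDO1C, each with p = 0.1 in a two-sided exact permutation test, the smallest p that 3 libraries against 3 allow. All 11 markers of prostate luminal cells were detected above 1 CPM in every condition, whereas 9 of 13 markers of stromal, endothelial and blood cells were not, and 3 of these were at 0 in all libraries. The luminal markers summed to between 6874 and 7006 CPM with siCtrl, while the range was 7913 to 8158 for siCDO1A and 7303 to 7519 for siCDO1C. The stromal, endothelial and blood markers summed to 22.2 to 24.5, 25.9 to 27.1 and 18.8 to 20.9 CPM in the same order. These sums moved with the siRNA, and their part in the results below was not tested. The largest luminal marker was KLK2, with means of 2984.5, 3779 and 3192 CPM, and the largest of the others was LUM, at 16.7, 17.0 and 12.2 CPM. The luminal markers did not move together. At an edgeR adjusted p of at most 0.05, 3 rose and 3 fell with siCDO1A, beside 14.8% of all genes tested. With siCDO1C, 2 rose and 2 fell, beside 4.77%. In bulk RNA, a change in the share of cells that express a gene cannot be told apart from a change in RNA per cell.

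The 10 genes were all tested, with counts from 125 (SMOX) to 24523 (AMD1) per library. Changes are log2 fold changes of edgeR's quasi-likelihood test with Benjamini-Hochberg adjustment over 15555 genes, and an adjusted p of at most 0.05 was counted as a change. With siCDO1A, MAT2A rose and AZIN1 fell, which makes 2 of 10 genes against 14.8% of all genes tested. With siCDO1C, MAT2A rose, which makes 1 of 10 against 4.77% of all genes tested. MAT2A was the 1 gene of the 10 that changed with both siRNAs in the same direction, as 3.62% of all genes did. Both counts are close to their background, and no other of the 10 genes passed. Which gene passed with both siRNAs depended on the fit: in 1 edgeR fit of all 9 libraries it was AZIN1 and not MAT2A. The median log2 fold change of the 10 genes was 0.02 with siCDO1A and -0.05 with siCDO1C, beside 0.01 and -2e-04 for all genes tested. Both comparisons use the same siCtrl libraries, so they are not independent of each other.

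**Figure D1:**
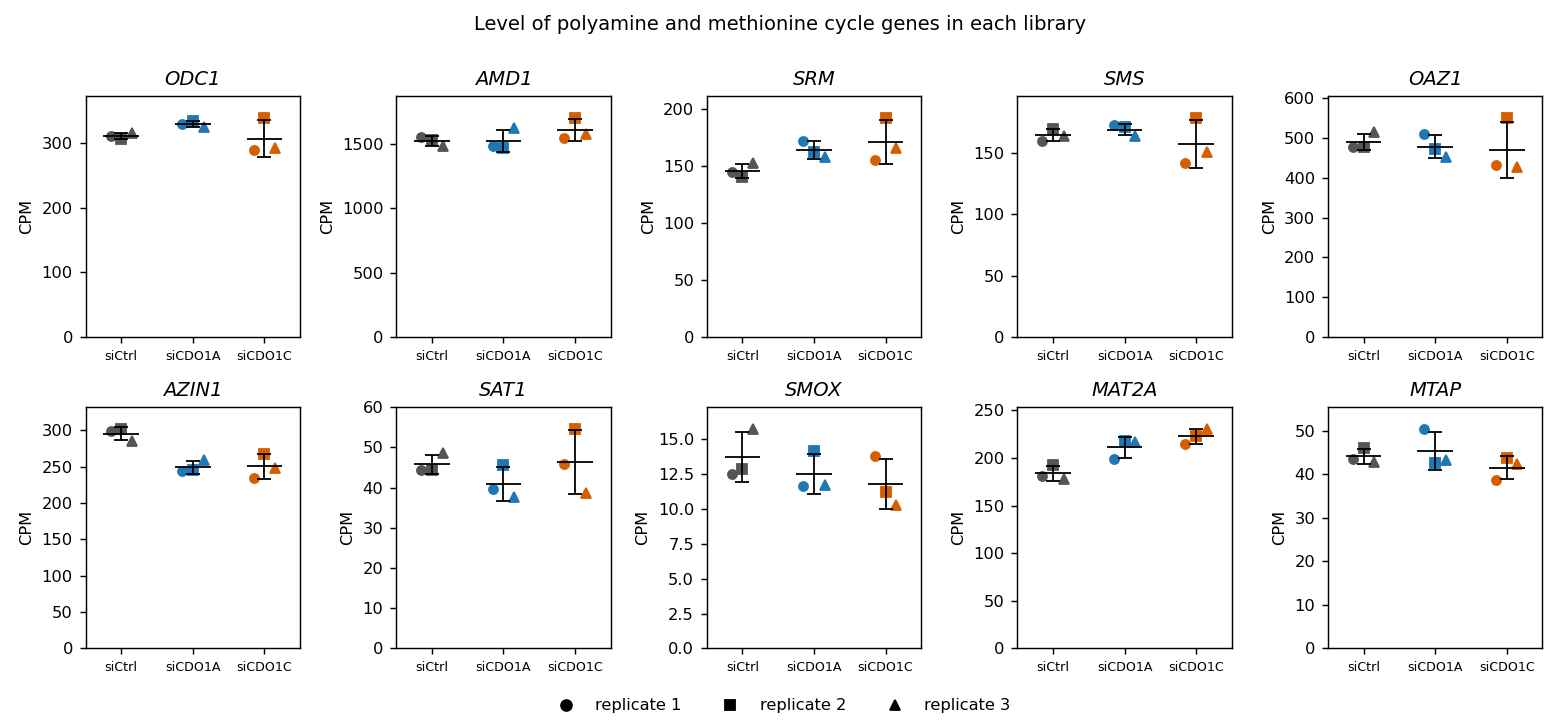
CPM after TMM scaling of the 10 genes in each of the 9 libraries, by condition, with every axis starting at 0. Points are libraries, shaped by replicate number, long lines are means and bars are SD (n = 3). All siRNA libraries lie above siCtrl for MAT2A and SRM and below it for AZIN1, and the square of siCDO1C (replicate 2) is the highest of all libraries for ODC1, AMD1, SRM, SMS, OAZ1 and SAT1.

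MAT2A encodes the catalytic subunit of the enzyme that makes S-adenosylmethionine from methionine and ATP, in the form used outside the liver. It lies on the plus strand of chromosome 2 (hg38, 85539165 to 85545280). Its mRNA is known for a series of hairpins in its 3′UTR that are bound by METTL16, an RNA methyltransferase, in a manner that depends on S-adenosylmethionine and that sets how much of the mRNA is spliced and kept. The sequence METTL16 recognises is TACAGAGAA or TACAGAAAA (written as DNA), and a search of the sense strand found it 6 times in the 1509 bases of the 3′UTR of the GENCODE canonical MAT2A transcript. The 6 sites are shown because they set MAT2A apart from the other 9 genes, in whose 3′UTRs neither sequence was found. Each is given with 10 bases before and 11 after, 5′ to 3′, with the recognised sequence in capitals. They start at positions 40, 827, 1012, 1127, 1242 and 1350, counted from 1 at the first base after the stop codon.
Site 1: tggcgtaggcTACAGAGAAgccttcaagct
Site 2: tgtgatgtcaTACAGAGAAgtcacagggca
Site 3: ctggtgtagcTACAGAGAAaccagcttcct
Site 4: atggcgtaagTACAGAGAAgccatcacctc
Site 5: caaggtgtccTACAGAAAAaccttgggtta
Site 6: gctggtgtggTACAGAGAAgccagcttgtt
Site 5 holds the TACAGAAAA form. Of 19057 annotated 3′UTRs, 857 (4.5%) held at least 1 such sequence, and 1, that of MAT2A, held 6 or more. These matches are descriptions of the transcript and say nothing about binding in these cells.

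MAT2A stood at 181, 193 and 178 CPM in the siCtrl libraries (replicates 1, 2 and 3), at 199, 218 and 217 CPM with siCDO1A and at 215, 223 and 231 CPM with siCDO1C. Every siRNA library was above every siCtrl library, which held for 3 of the 10 genes in one direction or the other and for 14.7% of all genes tested. The rise was 1.15-fold with siCDO1A (log2 0.20, SE 0.06, 95% interval 0.08 to 0.32, edgeR adjusted p = 0.0208). With siCDO1C it was 1.20-fold (log2 0.27, SE 0.07, 95% interval 0.12 to 0.42, edgeR adjusted p = 0.041). Both calls were lost when the batch number was used as a replicate block, at adjusted p = 0.0937 for siCDO1A and 0.0847 for siCDO1C in edgeR, with log2 fold changes of 0.20 and 0.27. In 1 edgeR fit of all 9 libraries, MAT2A did not pass with siCDO1A (adjusted p = 0.0765). The siCDO1A call was also lost without siCtrl replicate 1 (edgeR adjusted p = 0.104), siCtrl replicate 3 (0.0802) or siCDO1A replicate 2 (0.108), and the siCDO1C call was kept only when the library left out was siCDO1C replicate 2 (0.000682), with 0.0767 to 0.195 for the other 5 libraries. GGCX, a gene of vitamin K metabolism on the opposite strand that overlaps MAT2A, had 514 to 880 counts per library and fell with siCDO1A (log2 -0.27, edgeR adjusted p = 0.0189). With siCDO1C its log2 fold change was -0.23 and did not pass (edgeR adjusted p = 0.17). GGCX thus moved against MAT2A with siCDO1A, and the libraries were directional, but the strand setting of the counting is not given in the sources used here.

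METTL16, on the minus strand of chromosome 17 (2405562 to 2511891), was measured at 66.0, 61.8 and 53.6 CPM with siCtrl, at 85.7, 86.5 and 96.4 CPM with siCDO1A and at 84.9, 78.7 and 90.8 CPM with siCDO1C. All 6 siRNA libraries lay above the siCtrl libraries, and siCtrl replicate 3 was the lowest of the 9. METTL16 rose 1.48-fold with siCDO1A (log2 0.57, SE 0.08, edgeR adjusted p = 3.35e-05) and 1.40-fold with siCDO1C (log2 0.48, SE 0.09, edgeR adjusted p = 0.00657). The siCDO1A call was kept in 13 of 13 alternative settings, and the siCDO1C call in 12, the exception being the fit without siCtrl replicate 3 (edgeR adjusted p = 0.0624).

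AZIN1, the antizyme inhibitor, resembles ornithine decarboxylase without its activity and binds antizyme, which spares the decarboxylase from degradation. It is on the minus strand of chromosome 8 (102826357 to 102893864). It stood at 299, 302 and 285 CPM with siCtrl, at 243, 245 and 259 CPM with siCDO1A and at 235, 268 and 248 CPM with siCDO1C, so that the lowest siCtrl library was above all 6 siRNA libraries. With siCDO1A it fell by 15.5% (log2 -0.24, SE 0.05, edgeR adjusted p = 0.00332), a call kept in 13 of 13 alternative settings. With siCDO1C the estimate was nearly the same, -0.25 on the log2 scale, with a wider error (SE 0.07, 95% interval -0.40 to -0.09), and did not pass (edgeR adjusted p = 0.0671). The siCDO1C value passed in 2 of 13 alternative settings. It was 0.00014 without siCDO1C replicate 2, the highest AZIN1 library of its condition, and 0.044 in 1 edgeR fit of all 9 libraries. The highest value was 0.294, without siCtrl replicate 1. AZIN1-AS1, on the opposite strand, held 32 to 49 counts per library, which is 1.06% of the AZIN1 counts, and did not pass with either siRNA (log2 -0.06 and -0.14, edgeR adjusted p = 0.898 and 0.822).

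OAZ1 encodes antizyme, the protein that AZIN1 binds, which steers ornithine decarboxylase to the proteasome when polyamines are plentiful. Its levels ranged from 477 to 513 CPM with siCtrl, from 452 to 508 CPM with siCDO1A and from 428 to 551 CPM with siCDO1C, so that all conditions overlapped. The log2 fold change was -0.04 with siCDO1A (95% interval -0.15 to 0.08, edgeR adjusted p = 0.718) and -0.07 with siCDO1C (95% interval -0.26 to 0.13, edgeR adjusted p = 0.759). The siCDO1C value rests on replicate 2, whose 551 CPM stands beside 431 and 428 CPM in the others: without it the log2 fold change was -0.19 (edgeR adjusted p = 0.00674).

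ODC1, ornithine decarboxylase, is the first enzyme of polyamine synthesis and lies on the minus strand of chromosome 2 (10439968 to 10448504). It was measured at 311, 307 and 316 CPM with siCtrl, at 329, 334 and 324 CPM with siCDO1A and at 289, 339.5 and 293 CPM with siCDO1C. The siCDO1A libraries were all above siCtrl by a small margin that did not pass the test (log2 0.08, SE 0.05, 95% interval -0.02 to 0.18, edgeR adjusted p = 0.305). With siCDO1C, 1 library was above and 2 were below all siCtrl libraries, and the log2 fold change was -0.03 (SE 0.08, 95% interval -0.19 to 0.13, edgeR adjusted p = 0.896).

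AMD1 makes the decarboxylated S-adenosylmethionine that donates the aminopropyl group, and it was the most abundant of the 10 genes. It ranged from 1480.1 to 1554 CPM with siCtrl, from 1465 to 1618 CPM with siCDO1A and from 1544 to 1702 CPM with siCDO1C. Its log2 fold change was 0.00 with siCDO1A (95% interval -0.10 to 0.10, edgeR adjusted p = 0.991) and 0.07 with siCDO1C (95% interval -0.07 to 0.22, edgeR adjusted p = 0.642), so that a change of more than about 0.22 lay outside both intervals.

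SRM, spermidine synthase, came closest to a further call. It stood at 145, 140.29 and 153 CPM with siCtrl, at 173, 162 and 158 CPM with siCDO1A and at 156, 193 and 166 CPM with siCDO1C, with all siRNA libraries above siCtrl. The log2 fold change was 0.17 with siCDO1A (SE 0.06, 95% interval 0.05 to 0.29, edgeR adjusted p = 0.0547) and 0.22 with siCDO1C (SE 0.08, 95% interval 0.05 to 0.40, edgeR adjusted p = 0.148). The siCDO1A value passed in 3 of 13 alternative settings. These were the fits without siCtrl replicate 3 (edgeR adjusted p = 0.0448), without siCDO1A replicate 3 (0.00615) and with protein-coding genes alone (0.0459). It did not pass in 1 edgeR fit of all 9 libraries (0.202), and the highest value was 0.236, without siCtrl replicate 2.

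SMS, spermine synthase, makes spermine from the product of SRM. It ranged from 160.01 to 169.7 CPM with siCtrl, from 164 to 172 CPM with siCDO1A and from 142 to 179 CPM with siCDO1C. The log2 fold change was 0.04 with siCDO1A (95% interval -0.08 to 0.15, edgeR adjusted p = 0.695) and -0.07 with siCDO1C (95% interval -0.25 to 0.11, edgeR adjusted p = 0.707). Here too the siCDO1C value rests on replicate 2, without which it was -0.17 (edgeR adjusted p = 0.0366).

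**Figure D2:**
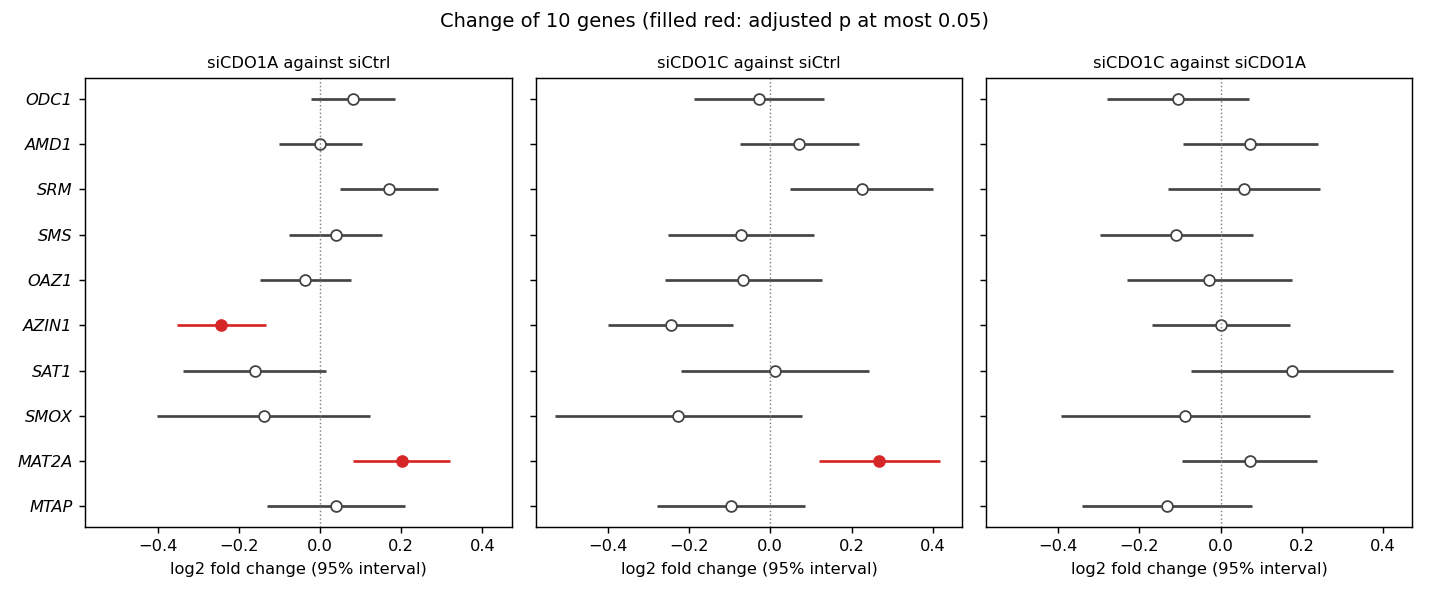
Log2 fold change of the 10 genes in the 3 comparisons, with 95% intervals from the edgeR fit (n = 3 libraries per condition). Filled red points pass an adjusted p of 0.05: MAT2A at 0.20 and AZIN1 at -0.24 with siCDO1A, MAT2A at 0.27 with siCDO1C, and none between the siRNAs.

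Among the 10 genes, the 2 of polyamine breakdown were the least abundant of the polyamine genes per length. SAT1, the acetyltransferase that marks spermidine and spermine for export or oxidation, ranged from 44.3 to 48.5 CPM with siCtrl, from 37.6 to 45.7 CPM with siCDO1A and from 38.7 to 54.6 CPM with siCDO1C. Its log2 fold change was -0.16 with siCDO1A (95% interval -0.34 to 0.02, edgeR adjusted p = 0.222) and 0.01 with siCDO1C (95% interval -0.22 to 0.24, edgeR adjusted p = 0.967). SMOX, the oxidase that turns spermine back into spermidine, ranged from 12.5 to 15.7 CPM with siCtrl, from 11.6 to 14.1 CPM with siCDO1A and from 10.3 to 13.8 CPM with siCDO1C. Its means were lower with both siRNAs, at -0.14 (95% interval -0.40 to 0.12, edgeR adjusted p = 0.52) and -0.23 (95% interval -0.53 to 0.08, edgeR adjusted p = 0.436) on the log2 scale, but the libraries overlapped. With 125 to 254 counts per library, SMOX had the widest intervals of the 10 genes in the comparisons with siCtrl.

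MTAP starts methionine salvage by splitting methylthioadenosine, the by-product of SRM and SMS. It ranged from 42.8 to 46.1 CPM with siCtrl, from 42.6 to 50.4 CPM with siCDO1A and from 38.6 to 43.7 CPM with siCDO1C, with log2 fold changes of 0.04 (95% interval -0.13 to 0.21, edgeR adjusted p = 0.802) and -0.10 (95% interval -0.28 to 0.09, edgeR adjusted p = 0.605). MTAP is lost in a share of cancers, and VCaP expressed it in every library with 514 to 691 counts.

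Between the siRNAs themselves, no difference was called for the 10 genes: 0 passed in edgeR, beside 0.444% of all genes tested, and 0 passed in DESeq2. An unadjusted edgeR p under 0.05 was found for 0 of the 10, beside 1190 of all 15555 genes tested. For MAT2A, the level with siCDO1C less that with siCDO1A was 0.07 on the log2 scale (95% interval -0.10 to 0.24, edgeR adjusted p = 0.95). For AZIN1 it was 0.00 (95% interval -0.17 to 0.17, edgeR adjusted p = 1). The differences that were furthest from 0 were those of SAT1 at 0.18 (95% interval -0.07 to 0.42, edgeR adjusted p = 0.85) and MTAP at -0.13 (95% interval -0.34 to 0.08, edgeR adjusted p = 0.887). These intervals leave room for differences of the size seen against siCtrl, so the test does not show that the siRNAs act alike.

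One siCDO1C library, replicate 2, stood apart from the others. The 10 genes took 0.354% of its counts, against 0.313% to 0.327% in the other 8 libraries. Without it, 4 of the 10 genes passed with siCDO1C, namely MAT2A, AZIN1, OAZ1 and SMS, and the number of all genes that passed went from 742 to 2068. Replicate 2 also had the most CDO1 of the siCDO1C libraries, at 2.81 CPM beside 1.09 and 1.15 CPM in replicates 1 and 3. The siCDO1A libraries lay at 2.05 to 3.28 CPM. The part of the CDO1 level in these shifts was not tested.

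Levels were also divided by the length of the deposited gene model. How these lengths were computed is not given, and they may differ from the mRNAs expressed, so the order below depends on them. In CPM per kilobase averaged over the 9 libraries, the order was AMD1 at 221, OAZ1 at 139, ODC1 at 106, SRM at 84.6, SMS at 75.8, MAT2A at 45.9, AZIN1 at 41.2, SAT1 at 17.8, SMOX at 4.30 and MTAP at 2.99. AMD1 was thus above 99.2% of the genes tested, and OAZ1 above 98.7%, whereas MTAP, whose gene model is 14617 bases long, was above 40.9%. Neighbours in this order did not overlap within any condition, except that ODC1 and SRM overlapped with siCDO1C and SRM and SMS overlapped with siCtrl and siCDO1C. MAT2A and AZIN1 changed places on this scale, but not in CPM. The CPM mean of MAT2A was below that of AZIN1 with siCtrl (184 against 295), siCDO1A (211 against 249) and siCDO1C (223 against 250). In CPM per kilobase, MAT2A at 39.7 to 43.0 was below AZIN1 at 44.3 to 47.0 in siCtrl cells, and above it with siCDO1A (44.3 to 48.6 against 37.9 to 40.4) and with siCDO1C (47.9 to 51.4 against 36.5 to 41.7).

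**Figure D3:**
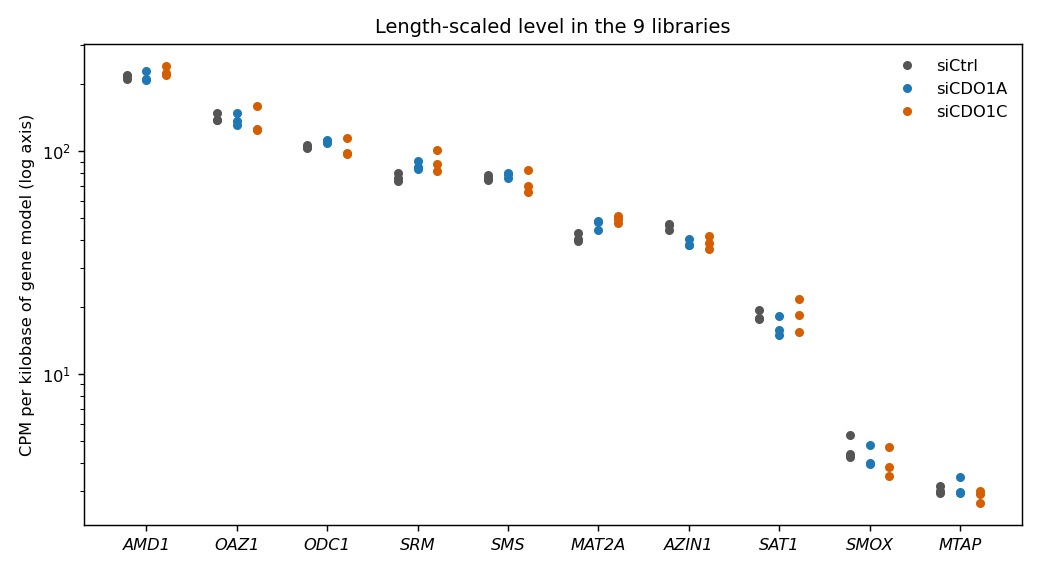
CPM per kilobase of the deposited gene model on a log axis, for the 10 genes in descending order of their mean over the 9 libraries. Each point is a library, coloured by condition. Levels run from 242 (AMD1) to 2.64 (MTAP). MAT2A and AZIN1 exchange places between siCtrl and both siRNAs on this scale, but not in CPM.

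Beyond these genes, 40 others of the pathway were read from 5 lists, and 36 passed the filter on low counts. With siCDO1A, 5 of the 36 rose and 2 fell, beside 14.8% of all genes tested, and with siCDO1C, 3 rose and none fell in edgeR, beside 4.77% of all genes tested. Both counts are near the background, so the lists are described by their single genes. At an unadjusted edgeR p under 0.05 there were 9 of the 36 with siCDO1C, beside 2890 of all 15555 genes tested. The median log2 fold change over the 36 genes was 0.02 with siCDO1A and 0.03 with siCDO1C. Between the siRNAs, 0 of 36 passed in edgeR, beside 0.444% of all genes tested, and 1 had an unadjusted p under 0.05, beside 1190 of 15555. SLC7A2, ARG2 and METTL16 were the 3 of the 36 that rose with both siRNAs, beside 3.62% of all genes tested that passed with both in the same direction.

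The supply of arginine and ornithine held the largest change that passed the test. SLC7A2, a transporter of the cationic amino acids arginine, lysine and ornithine, was at 258, 249.98 and 217 CPM with siCtrl, at 360.34, 366 and 428 CPM with siCDO1A and at 371, 307 and 379 CPM with siCDO1C. It rose 1.59-fold with siCDO1A (log2 0.67, SE 0.07, edgeR adjusted p = 9.92e-07) and 1.45-fold with siCDO1C (log2 0.54, SE 0.09, edgeR adjusted p = 0.00318), and it passed in 13 of 13 alternative settings with each. ARG2, the mitochondrial arginase that releases ornithine from arginine, was at 20.7, 23.6 and 21.0 CPM with siCtrl, at 29.6, 25.3 and 27.5 CPM with siCDO1A and at 28.7, 31.1 and 29.4 CPM with siCDO1C. It rose 1.26-fold with siCDO1A (log2 0.34, SE 0.09, edgeR adjusted p = 0.0195) and 1.36-fold with siCDO1C (log2 0.44, SE 0.10, edgeR adjusted p = 0.0161). With the replicate block the siCDO1A call was lost (edgeR adjusted p = 0.0613), as it was without siCtrl replicate 1 (0.0912), siCtrl replicate 3 (0.0659) or siCDO1A replicate 1 (0.108). The siCDO1C call was lost without siCtrl replicate 1 (0.1) or siCtrl replicate 3 (0.0984). SLC7A1, the other common transporter of arginine, went the opposite way to SLC7A2. It fell with siCDO1A, from 285 to 288 CPM in the siCtrl libraries to 245 to 265 CPM (log2 -0.17, SE 0.05, edgeR adjusted p = 0.0308, and 0.144 with the replicate block). This call was kept in 5 of 13 alternative settings, and was lost in 1 edgeR fit of all 9 libraries (0.201) and without a filter on low counts (0.0551). With siCDO1C it lay at 211 to 264 CPM (log2 -0.22, SE 0.09, edgeR adjusted p = 0.165).

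**Figure D4:**
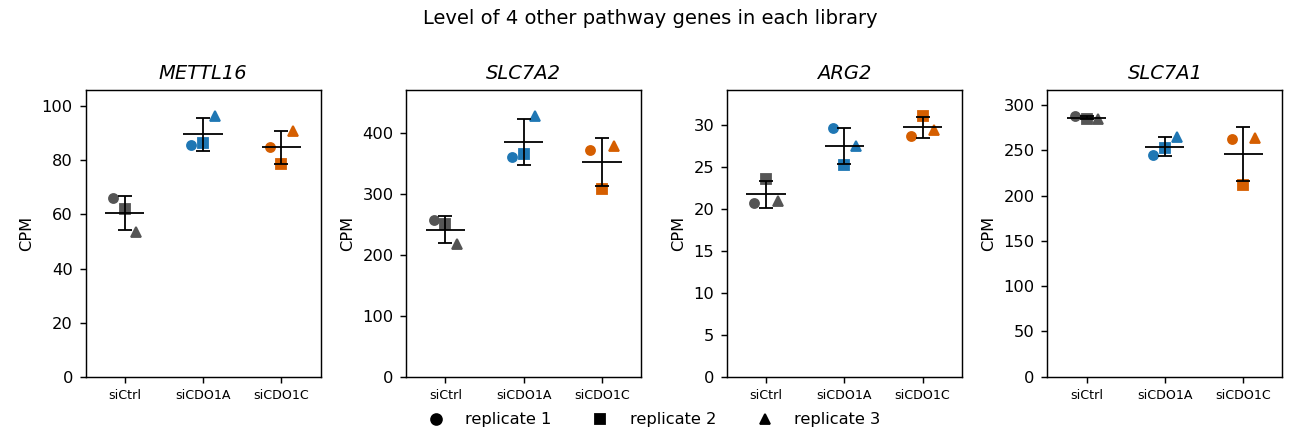
CPM after TMM scaling of METTL16, SLC7A2, ARG2 and SLC7A1 in each library, by condition, with axes starting at 0. Points are libraries shaped by replicate number, long lines are means and bars are SD (n = 3). All 6 siRNA libraries lie above siCtrl for METTL16, SLC7A2 and ARG2 and below it for SLC7A1.

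In the other lists, OAZ3, APIP and GNMT passed with siCDO1A, and these 3 calls were lost with the replicate block and in DESeq2 (adjusted p = 0.0771, 0.07 and 0.11). OAZ3, an antizyme known from the testis, was at 8.87 to 9.46 CPM with siCtrl and fell to 6.22 to 7.72 CPM (log2 -0.44, SE 0.14, edgeR adjusted p = 0.0383; 0.0701 with the replicate block). It was the 1 call among 8 tested genes of polyamine turnover and transport. APIP, which acts after MTAP in methionine salvage, was at 15.1 to 18.7 CPM and rose to 19.6 to 23.3 CPM (log2 0.34, SE 0.11, edgeR adjusted p = 0.0427; 0.0692 with the replicate block), as 1 of 4 tested salvage genes. GNMT, a methyltransferase that uses up S-adenosylmethionine, was at 4.05 to 4.69 CPM and rose to 5.87 to 6.22 CPM (log2 0.50, SE 0.16, edgeR adjusted p = 0.0439; 0.0925 with the replicate block). GNMT and METTL16 were the 2 calls with siCDO1A among 13 tested genes of the methionine cycle and transsulfuration. These counts per list stand beside 14.8% of all genes tested that passed with siCDO1A, and the lists are too short to read them as results about a pathway. No gene of the hypusine pathway, in which spermidine modifies the translation factor EIF5A, passed with either siRNA in edgeR (4 tested). An unadjusted p under 0.05 was found for 0 of them with siCDO1A and 1 with siCDO1C, beside 4347 and 2890 of all 15555 genes tested. With siCDO1C, OAZ3, APIP and GNMT had log2 fold changes of -0.36, 0.33 and 0.24 and did not pass (edgeR adjusted p = 0.159, 0.167 and 0.518).

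**Figure D5:**
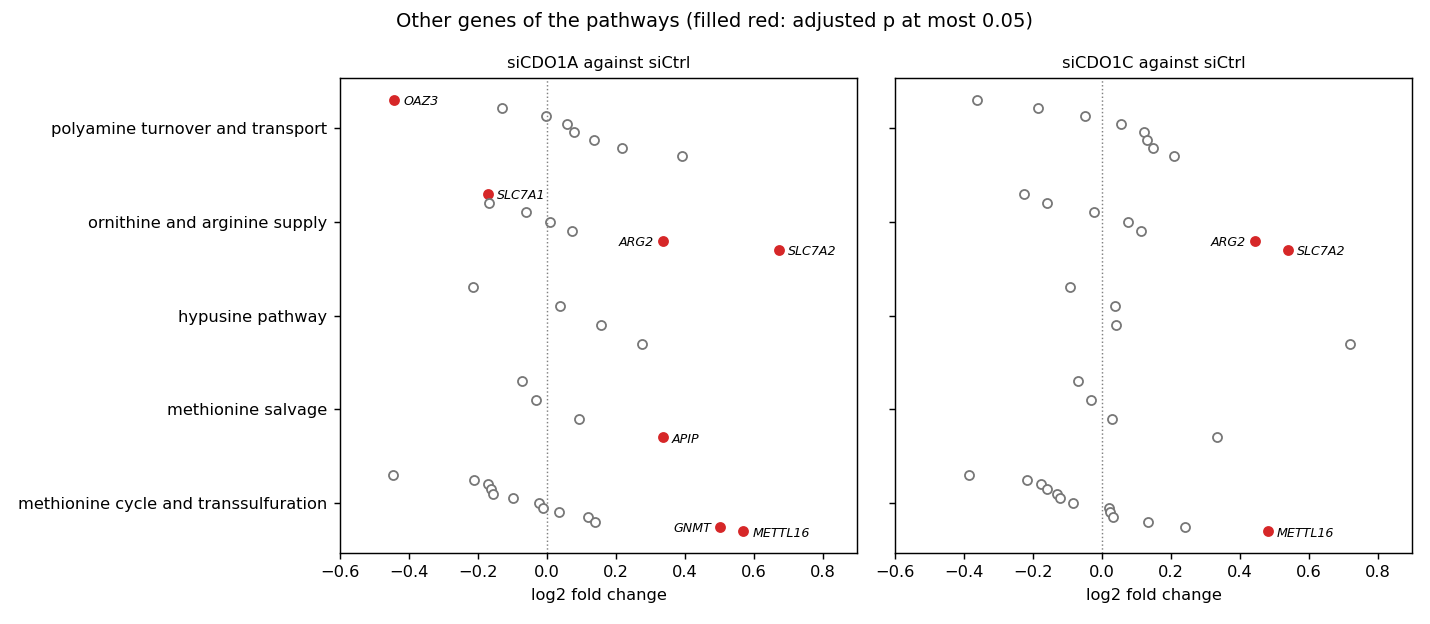
Log2 fold change of the 36 tested genes of the 5 lists with siCDO1A (left) and siCDO1C (right), 1 point per gene (n = 3 libraries per condition). Filled red points pass an adjusted p of 0.05 and are named, 7 with siCDO1A and 3 with siCDO1C.

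The siCDO1A calls of SLC7A1, OAZ3, APIP and GNMT also depended on single libraries. Leaving out 1 of the 6 libraries at a time, SLC7A1 and GNMT passed only without siCDO1A replicate 3, OAZ3 only without siCDO1A replicate 2, and APIP only without siCtrl replicate 2 or siCDO1A replicate 3.

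MYC, a transcription factor known to drive ODC1 and SRM, was at 589, 648 and 604 CPM on average with siCtrl, siCDO1A and siCDO1C, and did not pass (log2 0.14 and 0.03 against siCtrl, edgeR adjusted p = 0.0773 and 0.872). Of 9 tested genes in a list of MYC and its partners, 3 fell with siCDO1A, beside 14.8% of all genes called in either direction. In edgeR 0 passed with siCDO1C, beside 4.77% of all genes tested. An unadjusted p under 0.05 was found there for 3 of the 9, beside 2890 of 15555 genes tested. The 3 that fell with siCDO1A were MXI1, MXD1 and MXD4, relatives that compete with MYC for its partner MAX. Their log2 fold changes with siCDO1A were -0.22, -0.30 and -0.21 (edgeR adjusted p = 0.0459, 0.0352 and 0.0498), and each call was lost with the replicate block (0.146, 0.1 and 0.121) and in DESeq2 (0.0515, 0.062 and 0.0522). MXD3, of the same family and named here after its values were seen, lay in the other direction and did not pass (log2 0.19 and 0.26 with siCDO1A and siCDO1C, edgeR adjusted p = 0.187 and 0.161). MNT and MGA of the same list, also named after their values were seen, did not pass with siCDO1A (log2 -0.0085 and 0.0013, edgeR adjusted p = 0.956 and 0.992). Nor did they with siCDO1C (log2 0.0252 and -0.0173, edgeR adjusted p = 0.932 and 0.96). Leaving out 1 library at a time, MXI1 and MXD1 passed only without siCDO1A replicate 3, and MXD4 only without siCDO1A replicate 2. The letters of the E-box that MYC binds, CACGTG, which reads the same on both strands, were found in 2 of the 11 RefSeq promoters (250 bases before to 50 after a start site, GRCh38) of the 8 genes matched, and in 7.26% of 35116 promoters of all genes. The 2 are that of SRM and 1 of the pair listed for ODC1 (10447963 to 10448262), whereas the other ODC1 promoter (10448278 to 10448577), which spans the 5′ end of the deposited gene, holds none.

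Across the 9 libraries, the genes whose log2 levels followed those of MAT2A most closely were TDP1, TFRC and ETF1, among 11332 genes with at least 5 CPM. Their root mean square differences from MAT2A, after centring each gene, were 0.04, 0.05 and 0.05, beside a SD of 0.13 for MAT2A itself. The nearest patterns were CHCHD2, GAPDH and AHSA1 for ODC1, UBE2G1, TC2N and USP14 for AMD1, and MRPL58, ASNA1 and AP1M2 for SAT1, with differences from 0.03 to 0.07.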

How the data were processed

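Poly(A) RNA of VCaP cells was made into directional libraries and read from both ends, and after trimming and quality filtering the authors obtained counts for each gene from featureCounts. The submitters' processing notes name HISAT2 2.0.5 and hg38. Its settings for strand and for reads that map to several places, and how gene lengths were computed, are not given in the sources used here. The deposited values are whole counts without normalization and were used as deposited. The table has 3 further columns that match no sample here, and they were not used.

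Samples were grouped by siRNA. Genes were kept by filterByExpr of edgeR (minimum count of 10, 9 libraries), which left 15555 of 58735. Each comparison used its 6 libraries, TMM scaling and the robust quasi-likelihood test of edgeR 4.0.16 in R 4.3.3, with Benjamini-Hochberg adjustment over all genes tested, a threshold of 0.05, and SE from the log2 fold change and the F statistic. The test was checked on simulated counts. In the siCDO1A design, a log2 change of 0.25 was recovered for 24% of altered genes and 0.5 for 54%, and in the siCDO1C design for 14% and 42%. The 10 genes, the lists and the rule for naming genes (all 10 genes, CDO1, and every list gene past the threshold in any comparison, plus MYC) were chosen with earlier results of these data known. For nearest patterns, centred log2 CPM was compared by root mean square difference. The 3′UTR sites were read from GENCODE transcripts on GRCh37, by position in the transcript.

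The labels' batch number equals the replicate number, so each batch holds 1 library per condition and no within-batch test was possible. Deviations from group means, correlated over 11332 genes, gave for number 1 r = -0.196 (siCtrl and siCDO1A), 0.0504 (siCtrl and siCDO1C) and -0.131 (siCDO1A and siCDO1C), for number 2 -0.0873, -0.00933 and 0.123, and for number 3 -0.368, -0.271 and 0.37. The pairing comes from the labels, and blocked values stand beside the results whose call they change. Alternatives were RLE size factors, DESeq2 1.42.0, other filters, protein-coding genes alone, 1 fit of all 9 libraries, the replicate block, an adjusted p of 0.01 and leaving out each library. Counting error sets a floor on precision only, and the number of libraries limits it further.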

Additional observations from a re-analysis of the deposited data

How the results depend on the processing

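Of the 10 genes, the number that passed with siCDO1A went from 2 to 1 at an adjusted p of 0.01, in 1 fit of all 9 libraries and with the replicate block, and lay between 1 and 3 when 1 library was left out. With siCDO1C it went from 1 to 0 at an adjusted p of 0.01 and with the replicate block, to 2 in 1 fit of all 9 libraries, and lay between 0 and 4 when 1 library was left out, with 4 reached without siCDO1C replicate 2. Between the siRNAs it was 0 in every setting. Beyond the calls named in the report, the replicate block changed no other call of the 10 genes or of the list genes that passed. Other named genes, among them GGCX, KLK2, LUM and MYC, were not refitted with it. Over all genes, 2309 passed with siCDO1A, against 1107 at an adjusted p of 0.01, 1369 in 1 fit, 1358 with the replicate block and 1292 to 3454 without 1 library. With siCDO1C 742 passed, against 282 at 0.01 and 263 to 2068 without 1 library. Between the siRNAs 69 passed, against 24 at 0.01, 104 with DESeq2, 153 without a filter, 128 in 1 fit, 121 with the replicate block and 18 to 447 without 1 library.

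Signs turned only for genes that passed in neither setting. With siCDO1A, the log2 fold change of AMD1 was -0.0023 with RLE size factors and with DESeq2, -1e-04 with the replicate block and -0.0452 to 0.0277 without 1 library, where MTAP spanned -0.0401 to 0.0822 and OAZ1 -0.083 to 0.0027. With siCDO1C, leaving out 1 library gave -0.1156 to 0.1235 for SAT1, -0.1025 to 0.0222 for ODC1 and -0.1716 to 0.0038 for SMS. Between the siRNAs, AZIN1 was at -4e-04 with at least 10 counts in every library and at -0.0028 with protein-coding genes alone, and leaving out 1 library gave -0.0495 to 0.0456 for AZIN1, -0.1557 to 0.0345 for OAZ1, -0.2216 to 0.0121 for SMOX and -0.034 to 0.122 for SRM. The reduction of CDO1 ranged over 80.5% to 84.9% for siCDO1A and 85.8% to 91.9% for siCDO1C. The causes of these shifts were not tested.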
